A study of Homo sapiens with 2 samples.

Results

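The 5 genes of the AP-2 transcription factor family, TFAP2A, TFAP2B, TFAP2C, TFAP2D and TFAP2E, were examined for open chromatin in CAMA-1, a human breast adenocarcinoma cell line that the labels call epithelial. Open chromatin was measured by ATAC-seq, which uses Tn5, a transposase that cuts accessible DNA and leaves adapters for sequencing at the cuts. Both samples were biological replicates of 50000 cells of this 1 line, a long-term passage grown as adherent culture in DMEM with serum with no treatment named in the labels, so there was a single condition and no control group. The members were every peak that overlapped a gene body, from the first to the last base of the gene in the GENCODE annotation, or the 50 kb on either side of it. They numbered 92 of 245736 peaks in replicate 1 and 97 of 259745 peaks in replicate 2. Overlapping peaks of the 2 replicates were merged into regions, and 80 of the 215195 regions called in both replicates lay at these loci.

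AP-2 proteins have a helix-span-helix domain at the C-terminal end, bind DNA as dimers and prefer GC-rich palindromes of the form GCCNNNGGC. TFAP2A (AP-2 alpha) acts in neural crest, face, limb and skin, TFAP2B (AP-2 beta) in kidney and in closure of the ductus arteriosus, and TFAP2C (AP-2 gamma) in trophoblast, germ cells and luminal breast epithelium. TFAP2D (AP-2 delta) is best known from the midbrain and retina, and TFAP2E (AP-2 epsilon) from the olfactory bulb. TFAP2A and TFAP2C are the members usually studied in breast cancer, where they are linked to ERBB2 and ESR1, the genes of the receptors HER2 and estrogen receptor alpha.

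Markers of epithelium and of other cell types were compared first. All 6 epithelial markers examined (EPCAM, CDH1, KRT8, KRT18, KRT19 and ESRP1) had a peak within 1 kb of a transcription start site (TSS) in both replicates, at a mean fold enrichment of 85.3 to 143. Such a peak was present at 79.3% of all protein-coding genes, so its presence alone sets few genes apart. The blood markers PTPRC, CD3E and SPI1, which are not the whole list, had none, and of 2 endothelial markers PECAM1 had none and CDH5 had one (60.9). Fold enrichment compares the height of a peak, which is how many reads are stacked at its highest base, with the genome-wide background that MACS2 assumed. The median peak was 35 reads high in each replicate, and the backgrounds were 3.35 (replicate 1) and 3.52 (replicate 2).

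The promoters of TFAP2A, TFAP2B, TFAP2D and TFAP2E differed in their letters as well as in their accessibility, and that of TFAP2C was not analysed here. The sequences shown are the parts of the RefSeq promoters (GRCh38.p14) that lie before the first annotated start of each gene, 5′ to 3′ on the strand of that gene, with CG dinucleotides in capitals, since their number differs widely between these promoters. TFAP2A-AS2 is an antisense RNA gene inside TFAP2A whose start lies under the strongest peak of the family.
TFAP2A (chr6:10419660-10419909, minus strand): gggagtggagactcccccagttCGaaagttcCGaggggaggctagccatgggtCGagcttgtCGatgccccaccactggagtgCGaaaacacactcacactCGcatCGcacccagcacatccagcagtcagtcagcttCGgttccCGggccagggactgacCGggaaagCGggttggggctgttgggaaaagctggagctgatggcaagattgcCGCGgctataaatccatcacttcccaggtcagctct
TFAP2A-AS2 (chr6:10404252-10404501, plus strand): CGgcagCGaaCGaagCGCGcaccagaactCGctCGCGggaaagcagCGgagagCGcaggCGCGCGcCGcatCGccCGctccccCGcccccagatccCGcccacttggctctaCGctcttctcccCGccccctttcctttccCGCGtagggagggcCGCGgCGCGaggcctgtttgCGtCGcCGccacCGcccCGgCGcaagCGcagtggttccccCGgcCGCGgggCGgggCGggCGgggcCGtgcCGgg
TFAP2B (chr6:50818621-50818722, plus strand): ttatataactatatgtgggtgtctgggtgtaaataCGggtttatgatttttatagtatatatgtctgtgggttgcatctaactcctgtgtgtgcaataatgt
TFAP2D (chr6:50713276-50713525, plus strand): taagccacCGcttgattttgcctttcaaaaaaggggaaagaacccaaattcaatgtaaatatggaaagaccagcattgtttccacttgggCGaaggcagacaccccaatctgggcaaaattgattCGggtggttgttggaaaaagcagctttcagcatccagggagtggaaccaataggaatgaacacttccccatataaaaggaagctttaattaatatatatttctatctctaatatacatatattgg
TFAP2E (chr1:35573064-35573313, plus strand): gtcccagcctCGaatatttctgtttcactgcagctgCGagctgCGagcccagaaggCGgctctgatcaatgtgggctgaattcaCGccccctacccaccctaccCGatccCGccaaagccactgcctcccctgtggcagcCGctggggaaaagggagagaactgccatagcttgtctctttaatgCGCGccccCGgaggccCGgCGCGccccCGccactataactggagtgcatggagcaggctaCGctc

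In the full promoters of 300 bases, CG dinucleotides numbered 18 at the first TFAP2A start, 47 at TFAP2A-AS2, 5 at TFAP2B, 3 at TFAP2D and 20 at TFAP2E. A peak in both replicates covered all 300 bases at TFAP2A, at TFAP2A-AS2 and at a second TFAP2A promoter inside the gene (chr6:10412342-10412641), which also held 18 CG dinucleotides. At TFAP2B a weak peak covered 129 bases in replicate 1 and a different one 153 bases in replicate 2. The promoters of TFAP2D and TFAP2E were under no peak in either replicate. Of all 35116 promoters in the RefSeq table, 53.0% were under a peak in both replicates. The share was 15.0% for promoters with 3 or fewer CG dinucleotides, 17.9% for those with 5 or fewer, 83.0% for those with 18 or more and 83.8% for those with 20 or more. TFAP2E therefore had a promoter with 20 CG dinucleotides and no peak, TFAP2D one with 3 and no peak, and TFAP2A ones with 18 and strong peaks. Relative to the number expected from their C and G content, CG dinucleotides were not unusually many at TFAP2E, at percentile 56.7 of all promoters. The percentile was 53.2 at the first TFAP2A start, 69.0 at the second TFAP2A promoter and 28.2 at TFAP2D. None of these 6 promoters held GCCNNNGGC, which 23.2% of all promoters held.

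The regions shown next lie away from every annotated TSS. They were chosen among the strongest 3 of each locus because they hold GCCNNNGGC, a palindrome that reads the same on both strands and is given in capitals. Each line is the middle 200 bases of the region on hg38, since the peak lists give no summit.
TFAP2A, 36.0 kb downstream (chr6:10383517-10383716, plus strand): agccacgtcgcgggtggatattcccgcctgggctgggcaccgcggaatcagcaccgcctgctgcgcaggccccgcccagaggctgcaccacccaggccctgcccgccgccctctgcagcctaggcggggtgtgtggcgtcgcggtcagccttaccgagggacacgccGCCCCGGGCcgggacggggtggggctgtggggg
TFAP2A, 3189 bases upstream (chr6:10423241-10423440, plus strand): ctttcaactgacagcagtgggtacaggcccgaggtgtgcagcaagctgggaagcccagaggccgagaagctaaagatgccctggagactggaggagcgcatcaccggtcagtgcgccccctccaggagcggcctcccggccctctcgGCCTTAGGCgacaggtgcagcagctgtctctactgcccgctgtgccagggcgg
TFAP2C, 2282 bases upstream (chr20:56626483-56626682, plus strand): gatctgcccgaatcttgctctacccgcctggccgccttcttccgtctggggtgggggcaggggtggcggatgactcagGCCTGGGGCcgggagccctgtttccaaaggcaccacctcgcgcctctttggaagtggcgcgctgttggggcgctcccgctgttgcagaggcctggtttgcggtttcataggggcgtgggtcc
TFAP2C, 21934 bases upstream (chr20:56606689-56606888, plus strand): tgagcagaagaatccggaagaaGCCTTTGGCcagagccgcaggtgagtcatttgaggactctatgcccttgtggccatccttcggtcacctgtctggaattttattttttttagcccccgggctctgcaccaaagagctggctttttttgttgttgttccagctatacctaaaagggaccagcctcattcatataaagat
TFAP2B, 23.9 kb into the gene (chr6:50842480-50842679, plus strand): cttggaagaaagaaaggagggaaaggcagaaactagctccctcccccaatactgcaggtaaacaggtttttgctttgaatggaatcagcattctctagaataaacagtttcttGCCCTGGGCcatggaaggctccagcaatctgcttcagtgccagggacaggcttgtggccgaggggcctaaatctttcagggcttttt

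Peaks within 1 kb of an annotated TSS were present in both replicates at 3 of the 5 genes, TFAP2A, TFAP2C and TFAP2B. Among all 20033 protein-coding genes the share was 79.3% (15890 genes). The strongest TSS peak of TFAP2A had a fold enrichment of 138 in replicate 1 and 119 in replicate 2, that of TFAP2C 90.9 and 104, and that of TFAP2B 6.90 and 6.85. The values of TFAP2B are of neighbouring regions, since chr6:50820429-50821235 was the stronger in replicate 1 (6.63 in replicate 2) and chr6:50821406-50821771 in replicate 2 (5.29 in replicate 1). Over the 15890 genes the medians were 51.8 and 53.3. TFAP2A and TFAP2C thus stood above the median gene in each replicate, at percentiles 94.2 and 89.8 for TFAP2A and 79.7 and 85.0 for TFAP2C, whereas TFAP2B stood at percentiles 4.68 and 4.37. These percentiles take the strongest peak over all starts of a gene, and TFAP2A had 18 distinct starts against 2 at TFAP2C. At its most 5′ TSS alone TFAP2A had 79.8 and 82.9. TFAP2D and TFAP2E had no peak within 1 kb of any of their starts.

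**Figure D1:**
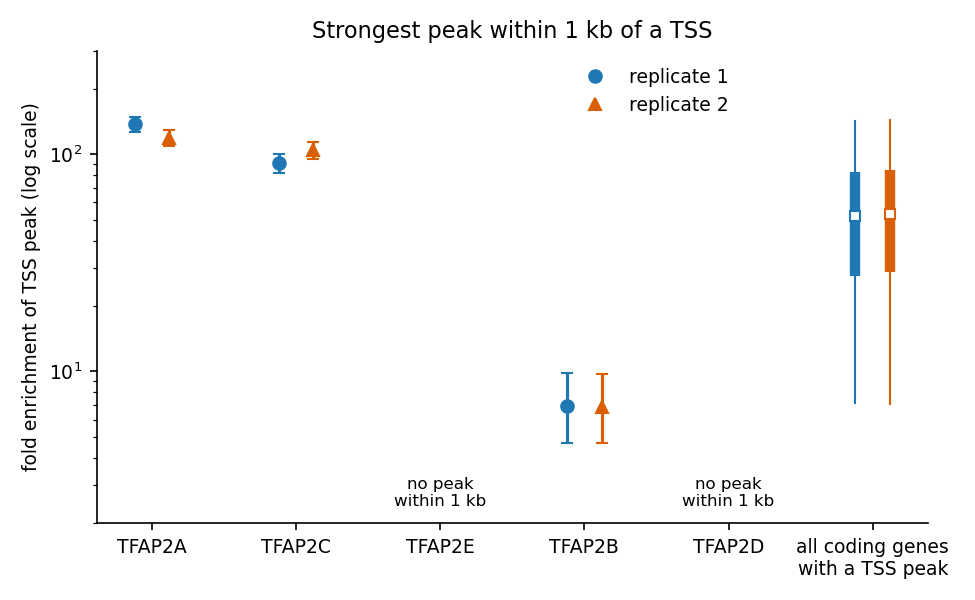
Fold enrichment (log scale) of the strongest peak within 1 kb of a TSS for each AP-2 gene in replicate 1 (circles) and replicate 2 (triangles), with exact Poisson 95% intervals of the peak height as bars. At the right, the white squares, thick bars and thin lines give the median, the quartiles and the 5th to 95th percentiles of the 15890 protein-coding genes, and TFAP2A and TFAP2C lie above the medians of 51.8 and 53.3 while TFAP2B lies below the lower end of both thin lines.

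Whether the paralogs could be ordered was judged by the replicates and by the exact Poisson 95% intervals of the heights, which cover counting error only, since reads without molecular identifiers are not independent molecules. The TFAP2A peak was 597 reads high (550.1 to 647) in replicate 1 and 537 (493 to 584) in replicate 2. The TFAP2C peak was 394 reads high (356 to 435) in replicate 1 and 470.0 (428 to 514) in replicate 2. TFAP2A was higher in each replicate, by a ratio of 1.51 in replicate 1 and 1.14 in replicate 2, but the intervals of replicate 2 overlapped, so the 2 genes were not distinct by this rule. The TFAP2B peaks were 29 reads (19.4 to 41.6) and 30 reads (20.2 to 42.8) high. Their intervals were far below those of TFAP2A and TFAP2C in both replicates, and the fold enrichment of TFAP2C was on average 14.2 times that of TFAP2B. The loci lie on chromosomes 6, 20 and 1, whose median TSS peaks were 52.2 and 55.1, 51.5 and 55.3, and 57.3 and 58.3. These medians cover whole chromosomes. Copy number at the loci themselves was not examined, and its bearing on the peak heights was not tested.

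TFAP2A (ENSG00000137203.15, chr6:10393186-10419659, minus strand) had the most starts of the family, 18 distinct TSSs over 19 transcripts, and the most regions. In its window of 126 kb there were 40 peaks in replicate 1, 36 in replicate 2 and 32 regions in both, of which 12 touched the gene body, 11 lay upstream and 9 downstream. Regions covered 14948 bases of the gene body, or 56.5% of it. Of the 18 TSSs, 16 lay under a peak in both replicates. The other 2, of transcripts TFAP2A-218 and TFAP2A-205, were 264 to 362 bases from the nearest peak.

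The strongest region of the TFAP2A locus, and of the family, was not at the first start. It lay 14.9 kb into the gene (chr6:10403575-10405878, 2304 bases) over the start of transcript TFAP2A-204 and a coding exon that other TFAP2A transcripts share, and over the start of TFAP2A-AS2, which is read from the other strand. ATAC-seq has no strand, so the sense and antisense starts cannot be told apart. The region over the first start (chr6:10418341-10420929, 2589 bases) had 79.8 in replicate 1 and 82.9 in replicate 2. The neighbouring region, over the starts of 7 transcripts (chr6:10414535-10418158, 3624 bases), had 84.9 and 78.7. Another broad region (chr6:10411282-10414479, 3198 bases), over 4 starts, had 44.9 and 51.3. The start of TFAP2A-211 lay under a weaker region of 13.6 and 9.73, and a region of 4.14 and 4.64 lay 621 bases from it. Over the 16 covered starts of this 1 gene, fold enrichment thus ran from 9.73 to 138.

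Away from TSSs, the strongest region of the TFAP2A locus lay 36.0 kb downstream of the first start, beyond the end of the gene (chr6:10383210-10384022), with 69.3 in replicate 1 and 69.2 in replicate 2. Next came a region 3189 bases upstream of the gene (chr6:10422848-10423832), with 51.1 and 48.6, overlapping the RNA gene ENSG00000228478, and one 10014 bases upstream (chr6:10429673-10430446), with 43.7 and 40.5, inside the RNA gene LINC00518. The first 2 are the TFAP2A sequences printed above. The counting intervals of the heights overlapped between the replicates at all 3 regions. Of the other genes that start in the window, ENSG00000228478 and ENSG00000285759 shared a region of 44.2 and 36.9 between their starts, TFAP2A-AS1 had its strongest peak in the region of 84.9 and 78.7, and LINC00518 and MIR5689HG had peaks of at most 5.75. MIR5689 and the pseudogenes ENSG00000216781 and MRPL48P1 had none. The longest stretch without a region was 30.3 kb and held most of MIR5689HG.

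TFAP2C (ENSG00000087510.7, chr20:56629306-56639283, plus strand) is a compact gene with 2 TSSs, both of them under a single region. That region (chr20:56628251-56631986) was 3736 bases wide and covered the first part of the gene, and the peak in replicate 1 was wider than 97.9% of TSS peaks. In the window of 110.0 kb there were 16 peaks in replicate 1, 19 in replicate 2 and 14 regions in both. Only the TSS region touched the gene body, with 6 regions upstream and 7 downstream. The strongest region away from TSSs lay 2282 bases upstream (chr20:56626140-56627024), with 85.1 in replicate 1 and 78.7 in replicate 2, close to the 90.9 and 104 of the promoter itself. A second lay 21934 bases upstream (chr20:56606204-56607372), with 56.1 and 58.8, and another 52669 bases downstream of the nearest TFAP2C start (chr20:56682903-56683930), with 31.8 and 34.7. The first 2 hold GCCNNNGGC and are printed above. Among other genes, ENSG00000289199 had a TSS peak of 23.2 and 17.0 and RN7SL170P one of 12.4 and 11.1, while RPS4XP3, RNU6-1146P and the start of LINC01716 inside the window had none.

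TFAP2B (ENSG00000008196.13, chr6:50818723-50847619, plus strand) had mostly weak regions, of which 4 were above the median of all regions in mean fold enrichment. There were 16 peaks in replicate 1, 17 in replicate 2 and 14 regions in both, 8 of them in the gene body. Around its 3 TSSs lay 4 regions with fold enrichments of 4.37 to 6.90 in replicate 1 and 4.42 to 6.85 in replicate 2. No region in both replicates lay over a TSS. The first TSS was under a peak of 3.45 in replicate 1 alone and the next under a peak of 3.98 in replicate 2 alone. The strongest region lay near the end of the gene, in the untranslated part of the last exon of TFAP2B-202 (chr6:50843915-50844264), with 20.5 and 21.7. It was followed by a region 2302 bases upstream (chr6:50816158-50816421), with 17.0 and 15.5, and by an intronic one (chr6:50842435-50842724), with 14.5 and 17.7, which holds GCCNNNGGC and is printed above. The pseudogene RPS17P5 had no peak, and the last 46.9 kb of the window had no region.

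TFAP2D (ENSG00000008197.5, chr6:50713526-50773033, plus strand), the neighbour of TFAP2B on chromosome 6, was the least accessible. Its window had 11 peaks in replicate 1, 10 in replicate 2 and 9 regions in both, but 7 of these 9 were also in the TFAP2B window. The 2 others were weak, a region far upstream (chr6:50666932-50667093) with 5.52 and 3.98 and the only region in the gene body (chr6:50720702-50720890) with 5.75 and 5.09. The latter was 7176 bases from the first TSS and 2660 from the other in replicate 1. After it came the longest stretch without a region at any of the 5 loci, 65.0 kb, which held the remainder of the gene. Regions covered 0.318% of the TFAP2D gene body, compared with 56.5% for TFAP2A, 26.9% for TFAP2C, 9.98% for TFAP2B and 8.01% for TFAP2E.

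TFAP2E (ENSG00000116819.9, chr1:35573314-35595328, plus strand) combined closed starts with open surroundings. None of its 5 TSSs had a peak within 1 kb. The nearest region to the first start lay 1650 bases into the gene (chr1:35574964-35575683), with 30.8 in replicate 1 and 30.3 in replicate 2, stronger than 82.1% of all regions. The window had 18 peaks in replicate 1, 23 in replicate 2 and 18 regions in both, 10 of them upstream. Its strongest region was the promoter that KIAA0319L and NCDN share (chr1:35556917-35558068), with 89.97 and 82.9, and another was that of PSMB2, a proteasome subunit gene (chr1:35641222-35642265), with 46.5 and 54.8. Away from TSSs the strongest were at chr1:35545027-35545419, with 36.1 and 34.3, and at chr1:35564639-35565023, with 35.2 and 31.2. TFAP2E-AS1, an antisense RNA gene over the TFAP2E start, had no TSS peak.

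**Figure D2:**
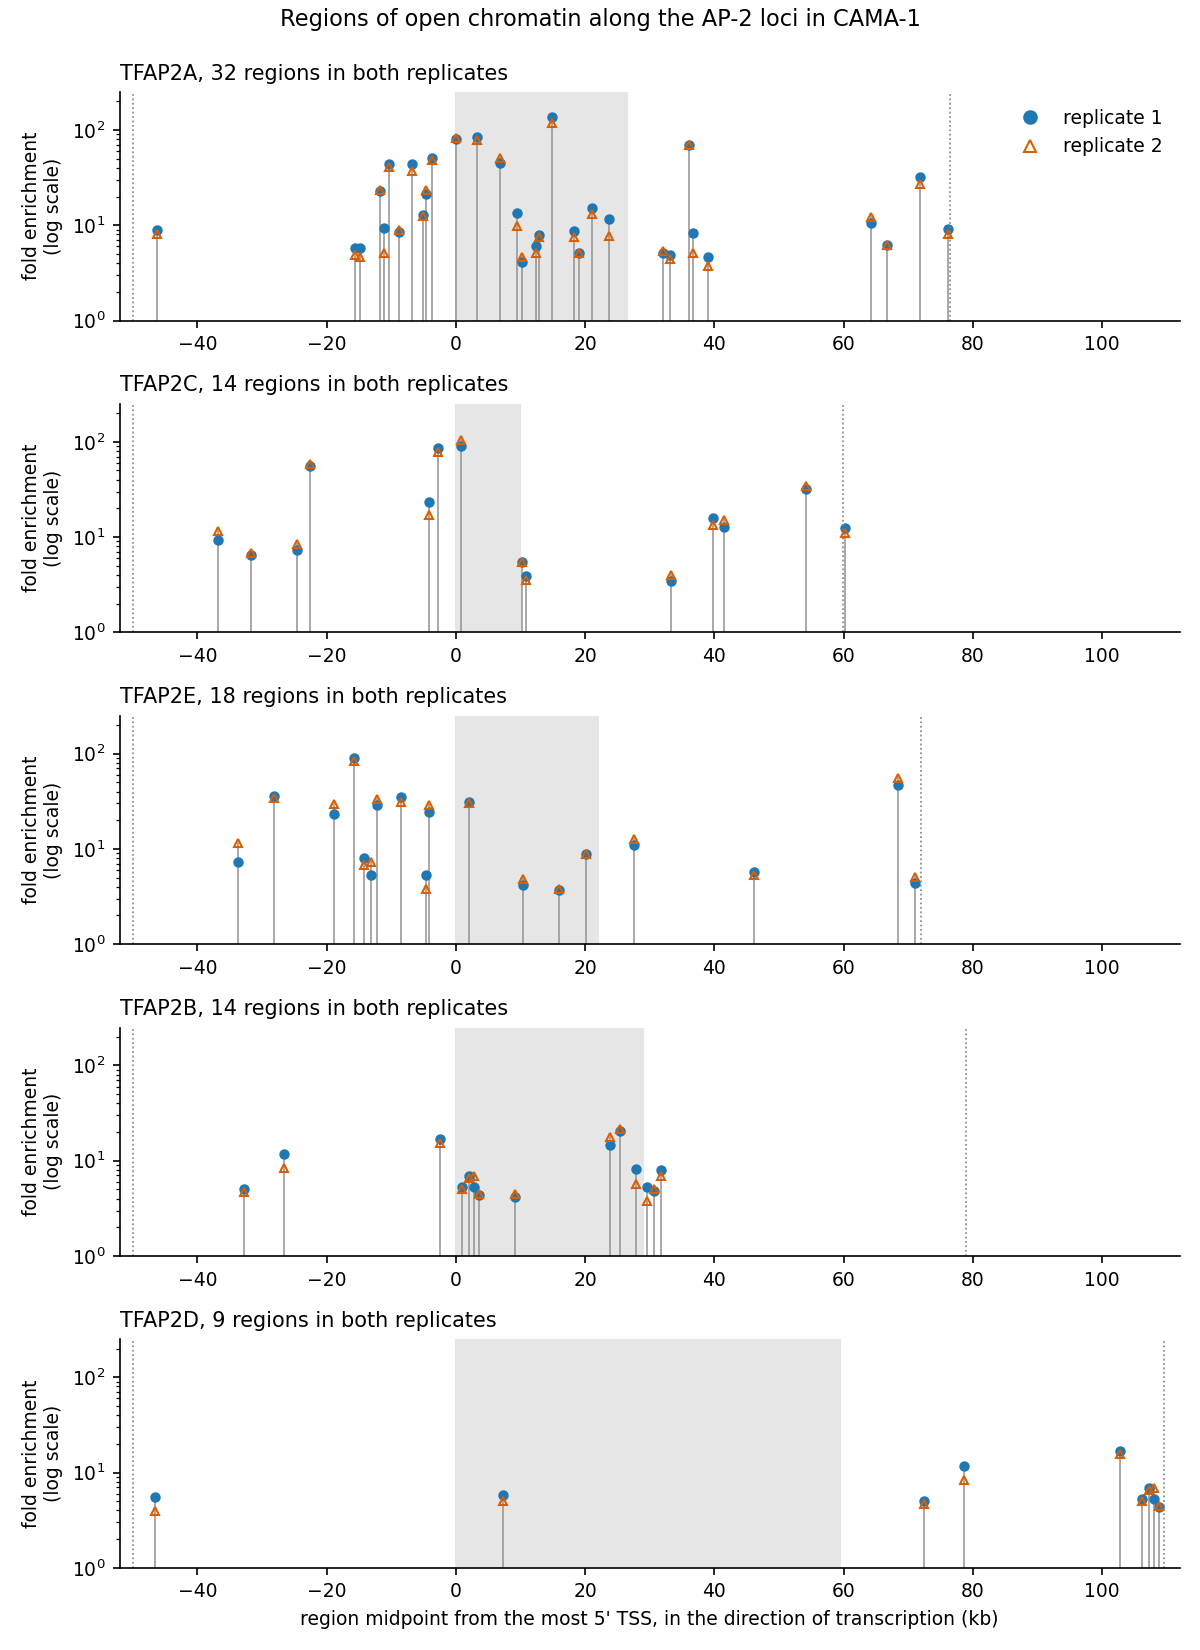
Fold enrichment (log scale) of each region called in both replicates against the distance of its midpoint from the most 5′ TSS in kb, for replicate 1 (filled circles) and replicate 2 (open triangles), with the gene body in grey and the window ends as dotted lines. TFAP2A had 32 regions with strong ones inside and on both sides of the gene, whereas TFAP2D had a single region of 5.75 and 5.09 in its gene body, and 7 of its 9 regions recur in the TFAP2B map.

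The density of regions followed a partly different order from the TSS peaks. It was 25.3 per 100 kb at TFAP2A, 14.8 at TFAP2E, 12.7 at TFAP2C, 10.9 at TFAP2B and 5.64 at TFAP2D, against a median of 11.4 over all protein-coding genes with their own windows. TFAP2A stood at percentile 87.2 of those genes and TFAP2D at percentile 23.4, so all 5 lay between the 5th (1.72) and the 95th (32.3) percentile. In replicate 1 the peaks per 100 kb were 31.6 at TFAP2A, 14.8 at TFAP2E, 14.5 at TFAP2C, 12.4 at TFAP2B and 6.90 at TFAP2D, and in replicate 2 they were 28.5, 18.9, 17.3, 13.2 and 6.27 in the same order. The order was thus the same in both replicates. In regions per 100 kb, however, TFAP2E and TFAP2C differed by less than the larger of their standard deviations between replicates. So did TFAP2C and TFAP2B. The order also depended on the neighbours and on the window. With a flank of 100 kb the density was 13.3 at TFAP2C and 12.6 at TFAP2E. Without regions at TSSs of other protein-coding genes TFAP2E fell to 10.7 and TFAP2D to 3.13, and within the gene bodies alone the densities were 45.3 at TFAP2A, 27.7 at TFAP2B, 18.2 at TFAP2E, 10.0 at TFAP2C and 1.68 at TFAP2D.

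The share of the window under regions was 20.6% at TFAP2A, 9.54% at TFAP2C, 7.00% at TFAP2E, 3.59% at TFAP2B and 1.73% at TFAP2D, with a median of 5.87% over all genes. By this measure TFAP2C passed TFAP2E, and its regions had a median width of 457 bases against 341. Of the 80 regions, 11 belonged to the strongest 10% of all regions, 6 at TFAP2A, 3 at TFAP2C and 2 at TFAP2E. Both of those at TFAP2E were the promoters of other genes named above, and TFAP2B and TFAP2D had 0.

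**Figure D3:**
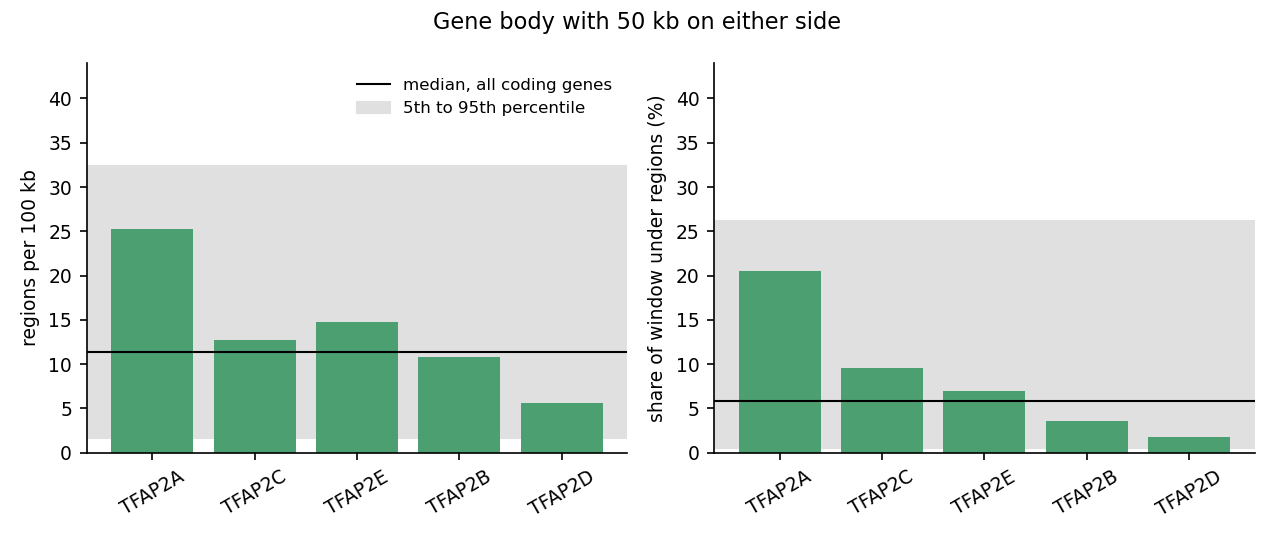
Regions called in both replicates per 100 kb (left) and percent of the window under them (right) for each AP-2 gene with 50 kb on either side, as bars from 0. The black line is the median of all protein-coding genes (11.4 per 100 kb and 5.87%) and the grey band their 5th to 95th percentiles, within which all 5 genes lie.

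The replicates were compared region by region. The ratio of replicate 2 to replicate 1 had a median of 0.961 over the 80 regions and ran from 0.539 to 1.56, and the median over all regions was 1.02, with 5% under 0.730 and 5% over 1.44. The extremes were a region upstream of TFAP2A (9.43 and 5.09) and one upstream of TFAP2E (7.36 and 11.5). By mean fold enrichment they stood at percentiles 36.4 and 48.2 of all regions. Spearman's rho over the 80 regions was 0.956, a description across sites that share the same libraries. Peaks of 1 replicate alone numbered 10 of 92 in replicate 1 (10.9%, beside 9.85% of all peaks of that replicate) and 16 of 97 in replicate 2 (16.5%, beside 15.3%). They were weak, with a highest fold enrichment of 5.98 in replicate 1, in TFAP2A, and of 8.40 in replicate 2, in TFAP2C.

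**Figure D4:**
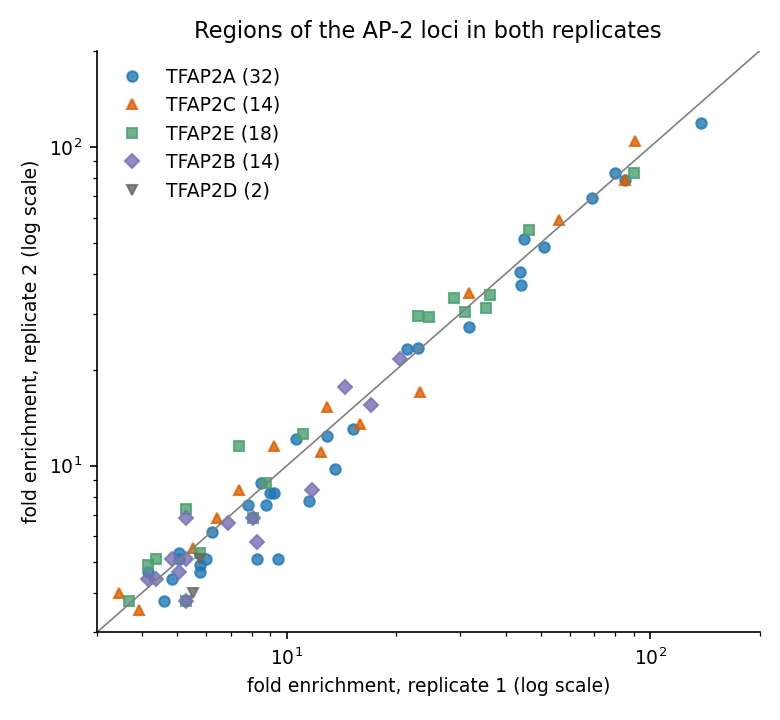
Fold enrichment in replicate 2 against replicate 1, both on log scales, for the 80 regions of the AP-2 loci, each plotted once (the 7 regions in both the TFAP2B and TFAP2D windows are drawn as TFAP2B). The grey line marks equal values, and the ratios of replicate 2 to replicate 1 run from 0.539 to 1.56.

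The AP-2 palindrome GCCNNNGGC was present within 150 bases of the midpoint in 17 of the 80 regions, or 21.3% (Wilson 95% interval 13.7 to 31.4), beside 15.6% of all regions in both replicates. That interval includes the share of all regions. Neighbouring regions of a locus are not independent, so this interval and those below describe the share and are not a test. Among the 64 regions farther than 1 kb from AP-2 and other protein-coding TSSs it was present in 12, or 18.8% (11.1 to 29.97), beside 13.7% of all regions farther than 1 kb from a protein-coding TSS. Of the 11 regions within 1 kb of an AP-2 start, 4 held it, beside 26.3% of all regions within 1 kb of a protein-coding TSS. By locus it was in 7 of 32 regions at TFAP2A, 4 of 14 at TFAP2C, 3 of 14 at TFAP2B, 1 of 9 at TFAP2D and 3 of 18 at TFAP2E. The region with it in the TFAP2D window (chr6:50822174-50822418) lies at a TFAP2B start and is also among the 3 at TFAP2B. The same palindrome with 4 bases between its arms was in 7 of the 80 regions, or 8.75% (Wilson 95% interval 4.30 to 17.0), and that interval includes the 13.7% of all regions. A match is a description of the letters and not evidence of binding.

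Of the listed genes for proteins that bind or modify AP-2, 12 are reported here, which is not the whole list. Each of the 12 was open at a TSS in both replicates, beside 79.3% of all protein-coding genes. Their median fold enrichment was 62.8, beside medians of 51.8 and 53.3 in the replicates over all genes with a TSS peak. The coactivators CITED2 (77.1 and 77.2) and CITED4 (81.5 and 72.5), which bridge AP-2 to the acetyltransferases EP300 (mean 63.5) and CREBBP (mean 59.8), were above the median gene, while CITED1 was the lowest of these genes (22.8 in replicate 1 and 16.4 in replicate 2). The AP-2 repressors KCTD1 (mean 41.9) and KCTD15 (mean 32.8) were below the median gene. WWOX, which binds AP-2 proteins in the cytoplasm, was the highest (119 and 129.8), followed by YEATS4 (mean 88.6). NPM1 had a mean of 67.1, DEK 62.1 and SUB1 39.8.

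All 8 genes listed as reported AP-2 targets were likewise open at a TSS in both replicates, beside 79.3% of all protein-coding genes. Their median fold enrichment of 44.6 was below the medians over all genes with a TSS peak, 51.8 and 53.3. KRT8, a keratin of simple epithelia, was the highest (140.1 in replicate 1 and 147 in replicate 2). ERBB2 had 110.0 and 118 and the cell-cycle inhibitor gene CDKN1A 102 and 95.7. ESR1 was lower, at 31.3 and 32.5, at percentile 28.7 of the genes with a TSS peak. KIT had a mean of 48.1, GPX1 37.1 and MCAM, a cell adhesion gene, the lowest at 17.8. Of the 8 genes, RET differed most between replicates, with 51.3 and 31.0.

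For each AP-2 gene with a TSS peak, the locus most like it among 15890 protein-coding genes was found over 4 standardized measures (log2 fold enrichment and log2 width of the TSS peak, regions per 100 kb and share of the window covered). TFAP2A was nearest to the histone gene H2BC4 (131.8 and 119, with 25.4 regions per 100 kb), at a Euclidean distance of 0.0879 in z-score units. TFAP2C was nearest to DTX4 (113 and 106, with 11.7 regions per 100 kb), at 0.183. TFAP2B was nearest to IL22RA2 (6.21 and 7.96, with 10.8 regions per 100 kb), at 0.173.

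How far the family counts depend on the distance to a TSS was also recorded. With peaks up to 3 kb from a TSS all 5 genes had one, at a mean of 30.6 for TFAP2E, 16.3 for TFAP2B and 5.42 for TFAP2D. With the most 5′ TSS alone TFAP2A had a mean of 81.4, below the 97.5 of TFAP2C, so the order of these 2 genes depended on the TSS used.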

How the data were processed

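Both CAMA-1 replicates were measured by ATAC-seq. Per the submitters' processing notes, the authors used Trim Galore 0.6.5, Bowtie2 2.3.5.1 and MACS2 2.2.6 on hg38 and called peaks in each replicate. The MACS2 settings, duplicate handling and excluded regions are not given in the sources used here. For each peak the authors deposited 4 values: a fold enrichment (ratio over background), a score, and p-value and q-value as −log10. Read counts and summits were not used here. Fold enrichment was taken as (height + 1) / (background + 1), whose step (0.230 and 0.221) gave the heights. Poisson p-values computed from these heights matched those deposited (tolerance 0.01 on the −log10 scale) for 100% of the peaks checked. Depth bears on which weak peaks pass, and read totals were not used here.

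Genes came from GENCODE release 44. Regions were peaks of both replicates that overlapped by at least 1 bp. Percentiles of TSS peaks are among the 15890 genes with one in each replicate, and those of densities among all 20033 protein-coding genes. The functions were tested on simulated data. With 1 condition and 2 replicates no test between groups was possible (the smallest two-sided exact p of 2 against 2 values is 0.333). Named were the 5 genes with their TSS peaks and strongest 3 regions away from TSSs, other genes that start in a window, the listed genes and the nearest loci. One listed partner and one blood marker are not reported here and were left out of the counts. Members and lists were chosen with earlier results of these data known. Scripts ran under Python 3.11.15 (scipy 1.17.1, numpy 2.4.6).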

Additional observations from a re-analysis of the deposited data

How the results depend on the processing

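No paired analysis was possible because there was a single condition. Of 79 alternative values for 12 results, 42 stayed within and 37 moved beyond the limit set for them, which was the spread between replicates, or the Wilson interval for the motif share and 1.5 times for the number of genes. Some of the values that stayed within did so by construction. For TSS fold enrichments and their ratios, either replicate alone always lies within that spread of the mean. Leaving out a replicate therefore says nothing about the stability of those results. The strongest TSS peaks all had a −log10 q above 10, so that filter could not change them. For the TFAP2B TSS peak the limit was a spread of 0.0338 between values of neighbouring regions, so almost any change exceeded it. Densities without a replicate count peaks of 1 replicate, whereas the main values count regions in both. The causes were not tested beyond what each alternative changes by construction. Regions per 100 kb with a −log10 q of at least 10 were 17.4 at TFAP2A, 6.21 at TFAP2B, 2.51 at TFAP2D and 11.5 at TFAP2E. A reciprocal overlap of 50% gave 8.53 at TFAP2B and 4.39 at TFAP2D. A flank of 10 kb gave 43.0 at TFAP2A, 24.5 at TFAP2B, 16.7 at TFAP2C, 1.26 at TFAP2D and 19.0 at TFAP2E, and a flank of 100 kb gave 21.6 at TFAP2A, 8.30 at TFAP2B and 7.71 at TFAP2D. Gene bodies alone gave 45.3, 27.7, 10.0, 1.68 and 18.2 for TFAP2A to TFAP2E in order. Without TSS regions of other protein-coding genes the values were 3.13 at TFAP2D and 10.7 at TFAP2E. With either replicate left out, the peaks of the other one gave 28.5 to 31.6 per 100 kb at TFAP2A, 12.4 to 13.2 at TFAP2B, 14.5 to 17.3 at TFAP2C, 6.27 to 6.90 at TFAP2D and 14.8 to 18.9 at TFAP2E.

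A TSS distance of 3 kb gave 5 genes with a TSS peak and mean fold enrichments of 16.3 at TFAP2B, 5.42 at TFAP2D and 30.6 at TFAP2E. The TFAP2B mean was 5.15 with a distance of 100 bp and 5.19 with protein-coding transcripts or with the most 5′ TSS alone, and the TFAP2A mean was 81.4 with the most 5′ TSS alone. The 5.15 averages peaks at different TFAP2B starts, of 3.45 in replicate 1 and 6.85 in replicate 2. The ratio of TFAP2C to TFAP2B was 43.8 by −log10 q. The motif with 4 bases between its arms was in 8.75% of regions. At heights of 15 to 30 reads, as at the regions near the TFAP2B starts and in the TFAP2D gene body, the counting intervals are wide. A closed TSS means only that no peak passed the authors' threshold.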
